A study of Mus musculus with 24 samples.

Results

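The mitochondrial ribosomal proteins are the nucleus-encoded proteins of the mitoribosome, the ribosome inside the mitochondrion. Members were the genes whose annotated symbol starts with Mrpl or Mrps followed by a number. A member was kept when at least 1 of its probes had a detection p-value under 0.05 on 3 or more of 24 arrays. This kept 70 of 76 annotated genes, 45 with an Mrpl and 25 with an Mrps symbol, among 11010 named genes and 16262 features in all. Their mRNA levels moved little. Across 8 comparisons of 3 against 3 arrays, 1 member passed the threshold, and the median member differed by no more than 0.176 on the log2 scale.

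The mitoribosome makes the few respiratory-chain subunits that mitochondrial DNA encodes, and skeletal muscle depends on it for oxidative metabolism. Its large subunit joins amino acids into protein and its small subunit reads the mRNA. Some of its proteins have bacterial counterparts and others are known only in mitochondria. All are made in the cytosol and imported, while the ribosomal RNAs come from mitochondrial DNA. Symbols and subunits do not always match: Mrps30 and Mrps18a are large-subunit proteins, and Mrps36 is now known as a subunit of the 2-oxoglutarate dehydrogenase complex.

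The samples were triceps surae, the calf muscle group, of C57/Bl6 mice aged 4 months. Mice were wild type or MuRF1 knockout, which lacks the muscle ubiquitin ligase encoded by Trim63, and no label names the knockout allele or limits it to muscle. They drank dexamethasone, a synthetic glucocorticoid, at 3 mg/kg for 3 or 14 days, or were untreated littermates housed in parallel. The 8 groups were untreated wild type, dexamethasone-treated wild type, untreated MuRF1 knockout and dexamethasone-treated MuRF1 knockout, each in a 3-day and a 14-day arm, with 3 Illumina beadchip arrays per group. The labels do not say whether samples of a group came from separate animals, so the p-values here rest on array-to-array scatter that could be technical.

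Median probe signal ran from 81.0 to 102 per array and 29% to 36.1% of probes were detected. Mean signal before normalization separated the genotypes in the 3-day arm, at 260.6 to 301.9 on wild-type and 180.3 to 249.9 on knockout arrays. In the 14-day arm it overlapped, at 174.4 to 244.3 and 202 to 267.9. The part of this imbalance in the genotype differences was not tested. Trim63 had a log2 signal of 8.07 to 9.95 on wild-type arrays and 4.46 to 5.16 on knockout arrays, so no genotype label went against it; whether its probe lies in the deleted part is not stated. The 6 skeletal muscle markers had a mean log2 signal between 14.32 and 14.71 on every array. Array 3 of the treated knockout at 3 days stood apart: only 7 of 70 members lay below their own group mean there, and its median member deviation was 0.214. Oxidative phosphorylation subunits and cytosolic ribosomal proteins shifted there too, by medians of 0.207 and 0.265, beside 0.061 for all features. That array also had the lowest share of detected probes, 29%. On array 1 of the untreated knockout in the 14-day arm 59 of 70 members lay below their group mean. Its median member deviation from the mean over all arrays was -0.005, beside 0.2 and 0.143 on arrays 2 and 3 of that group. It was thus low within its group, not among all arrays. Array 3 of the treated knockout at 3 days and this array had the lowest array weights by limma, at 0.204 and 0.301. The tallies and medians that rest on either array are given below with and without it.

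Of the 70 kept genes 67 were detected on all 24 arrays. Mrpl39 was detected on 23 and Mrps2, a small-subunit protein, on 20. Mrpl57 was the closest to the limit, with 7 arrays, and its log2 signal of 4.28 to 5.27 lay near background. Just outside the limit was Mrpl32, whose best probe was detected on 1 array. Mrpl41, Mrpl45, Mrps14, Mrps22 and Mrps36 were detected on 0 arrays, so these 6 genes carry no measurement here. The 131 member probes gave 106 kept ones. In 47 genes a single probe was kept, and in the other 23 the probe of highest mean signal represented the gene.

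Treated and untreated arrays were set against each other in each genotype and arm by limma's moderated test, with p-values adjusted over all 16262 features. Mrps30 was the only member past the threshold of 0.05 in any of these 4 comparisons. It rose in the knockout at 3 days, the 1 member called there against 5.37% of all features. In the other 3 comparisons 0 members passed, against 3.87% of features in wild type at 3 days, 3.00% in wild type at 14 days and 3.27% in the knockout at 14 days. At an unadjusted p under 0.05 there were 8, 9 and 9 members in these 3 comparisons, or 11.4%, 12.9% and 12.9%, beside 13.3%, 12.8% and 14.3% of all features. In the knockout at 3 days there were 7, or 10%, beside 19.5%. The precision allowed a median 95% half-width of 0.29 on the log2 scale for a member's difference in 1 such comparison.

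Mrps30 encodes a large-subunit protein known only in mitochondria (probe ILMN_1225936, chromosome 13). Its log2 signal on the 3 arrays of untreated wild type in the 3-day arm was 10.39, 10.54 and 10.53, and with dexamethasone it was 10.76, 10.93 and 10.98. The knockout gave 10.64, 10.69 and 10.49 untreated and 10.95, 11 and 11.21 treated. All treated arrays lay above all untreated arrays of the 3-day arm in both genotypes. In the 14-day arm wild-type values were 10.37, 10.39 and 10.39 untreated against 10.66, 10.66 and 10.58 treated, again without overlap. The 14-day knockout overlapped, with 10.51, 10.74 and 10.70 untreated against 10.80, 10.67 and 10.64 treated.

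The log2 fold change of Mrps30 at 3 days was 0.45 in the knockout (SE 0.118, adjusted p = 0.0249 by limma) and 0.40 in wild type (SE 0.118, adjusted p = 0.0593). The call in the knockout was lost without any 1 of 3 arrays: without array 3 of the treated knockout the difference was 0.37 (adjusted p = 0.158), and without arrays 1 and 3 of the untreated knockout, each left out alone, it was 0.46 and 0.39. At 14 days the differences were 0.25 in wild type and 0.05 in the knockout, neither past the threshold. The change of the effect between times was -0.27 (adjusted p = 0.237) and did not pass. Averaged over genotypes and times, Mrps30 was higher under dexamethasone by 0.29 (SE 0.0588, adjusted p = 0.00117).

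Averaging the dexamethasone difference over both genotypes and both times called 5 members, 1 higher and 4 lower, where 13.1% of all features passed, 5.84% higher and 7.30% lower. The share of members, 5 of 70, was not above the background. An unadjusted p under 0.05 by limma was reached by 12 members, or 17.1%, beside 23.1% of features. Mrps28, Mrpl48, Mrpl3 and Mrps12 were lower. Mrps28 is a small-subunit protein, Mrpl48 belongs to the central protuberance of the large subunit, Mrpl3 is a large-subunit protein with a bacterial counterpart, and Mrps12 lies at the decoding centre of the small subunit. Every call of a member named here, for dexamethasone or genotype, was lost when arrays were scaled by their median signal in place of quantile normalization. The averaged dexamethasone differences then were 0.294 for Mrps30, -0.25 for Mrps28, -0.266 for Mrpl48, -0.268 for Mrpl3 and -0.192 for Mrps12. Without array 3 of the treated knockout at 3 days the averaged count was 8, with the same 5 genes plus Mrpl42, Mrps17 and Mrps33. The share of all features called in that fit is not given here.

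Mrps28 had log2 signals of 10.14, 10.01 and 10.21 in untreated wild type of the 3-day arm and 9.89, 9.79 and 9.84 treated. In the knockout of that arm it had 10.11, 9.83 and 10.12 untreated and 9.59, 9.74 and 9.81 treated. Treated arrays lay below untreated ones in both genotypes. At 14 days wild type had 10.22, 9.92 and 9.98 untreated and 9.79, 9.52 and 9.72 treated, and the knockout 10.08, 10.18 and 9.97 untreated and 9.98, 9.94 and 10.03 treated. Only the knockout at 14 days overlapped. The averaged difference was -0.26 (SE 0.0629, adjusted p = 0.00517 by limma).

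Mrpl48 was read by 3 kept probes, which all gave a lower averaged value under dexamethasone. The probe of highest signal had 9.36, 9.13 and 9.16 in untreated wild type at 14 days against 9.04, 8.77 and 8.93 treated. In the knockout at 14 days it had 9.07, 9.30 and 9.10 against 8.78, 8.85 and 8.85. At 14 days treated arrays lay below untreated ones in both genotypes. In the 3-day arm wild type had 8.93, 8.97 and 9.12 against 8.89, 8.91 and 8.93, and the knockout 9.26, 9.11 and 9.04 against 8.83, 8.75 and 9.01. The knockout separated there, and in wild type the lowest untreated and highest treated values were equal to 2 decimals. The averaged difference was -0.25 (SE 0.0608, adjusted p = 0.00512 by limma), and the other 2 probes gave -0.41 and -0.37, both past the threshold.

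Mrpl3 had 9.33, 9.13 and 9.27 in untreated and 8.99, 8.86 and 8.87 in treated wild type at 14 days, and 9.19, 9.44 and 9.26 against 8.81, 9 and 8.97 in the knockout. Both genotypes separated without overlap. In the 3-day arm wild type overlapped. The 3-day knockout had 9.11, 9.43 and 9.33 against 9.11, 9.10 and 9.07, lower in treated arrays by less than 2 decimals show. The averaged difference of Mrpl3 was -0.25 (SE 0.0625, adjusted p = 0.00812 by limma), while its 2 other kept probes gave -0.16 and -0.03 and did not pass. Read as the mean of its probes, Mrpl3 was not called. Mrps12 had 10.43, 10.61 and 10.40 against 10.32, 10.21 and 10.13 in wild type and 10.49, 10.65 and 10.48 against 10.26, 10.18 and 10.20 in the knockout at 14 days. It too separated in both genotypes, with an averaged difference of -0.22 (SE 0.0567, adjusted p = 0.00974 by limma) and -0.14 for its other probe, which did not pass. In the 3-day arm Mrps12 overlapped in wild type and separated in the knockout, at 10.51, 10.67 and 10.48 against 10.27, 10.33 and 10.37.

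**Figure D1:**
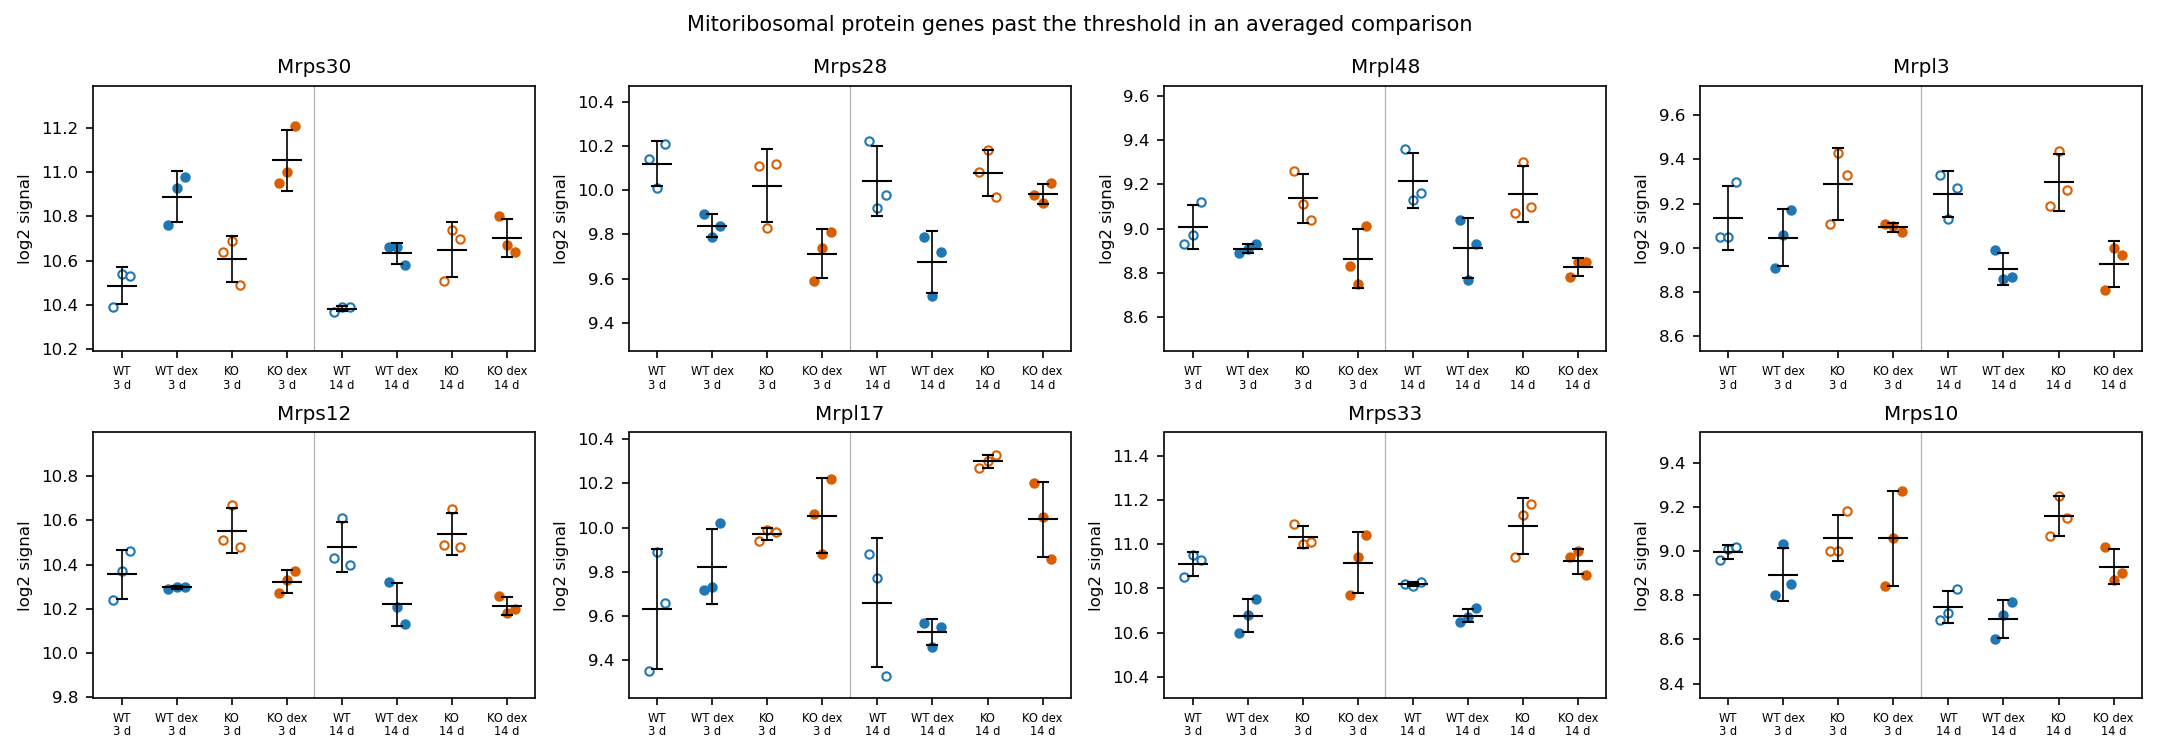
Log2 signal of 8 members on each array, by group; open circles are untreated and filled circles dexamethasone-treated arrays, blue is wild type (WT) and orange the MuRF1 knockout (KO), and bars give the mean and SD of 3 arrays. Mrps30 lies higher and Mrps28, Mrpl48, Mrpl3 and Mrps12 lower on most treated arrays, and Mrpl17 is highest in the untreated knockout of the 14-day arm, at 10.27 to 10.33.

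The next largest averaged rises, none past the threshold, were those of Mrps26 at 0.18, Mrpl55 at 0.17 and Mrpl34 at 0.16, with adjusted p-values of 0.342, 0.0645 and 0.206 by limma. Split by time, a contrast added after the data were seen, the 3-day dexamethasone difference over both genotypes called 3 members against 11.2% of all features. These were Mrps30 at 0.42, Mrpl55 at 0.27 and Mrps28 at -0.30. Mrpl55, the mitochondrial counterpart of a bacterial large-subunit protein, had 9.08, 9.12 and 9.25 untreated and 9.43, 9.37 and 9.48 treated in wild type, and 9.17, 9.16 and 9.32 against 9.52, 9.40 and 9.49 in the knockout, without overlap. The count fell to 1 without array 1 of untreated wild type, array 2 or 3 of treated wild type or array 1 of the untreated knockout. Of 12 fits that left out 1 array, Mrpl55 lost its 3-day call in 9, Mrps28 in 7 and Mrps30 in 0. Mrpl55 and Mrps28 also lost it when only the groups compared were fitted.

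At 14 days over both genotypes 4 members were lower and 0 higher, against 7.35% of all features: Mrpl3 at -0.35, Mrpl48 at -0.32, Mrps17 at -0.32 and Mrps12 at -0.29. Mrps17, a small-subunit protein with a bacterial counterpart, had 9.32, 9.43 and 9.50 against 8.99, 9.07 and 9.22 in wild type and 9.35, 9.52 and 9.69 against 9.11, 9.31 and 9.22 in the knockout. Its treated arrays lay below the untreated ones in both. At 3 days its arrays overlapped. Of the 2 other Mrpl3 probes 1 gave 0.21 in this contrast. The count fell to 2 without array 2 of untreated wild type, array 2 of treated wild type or array 1 of the treated knockout, and to 1 without array 2 of the untreated knockout. Of 12 such fits, Mrps17 lost its 14-day call in 8, Mrpl48 and Mrps12 in 4 each and Mrpl3 in 0. The difference between the 14-day and 3-day effect called 0 members, against 1.41% of features, with 10 at an unadjusted p under 0.05, or 14.3% beside 17.3% of features, so no member was shown by limma to change its response with time.

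The lower values at 14 days were spread over the list. Members varied together on each array, so the tallies below are not 70 separate readings. In the knockout the median member deviation by array was -0.005, 0.2 and 0.143 untreated and 0.056, 0.035 and -0.031 treated. Wild type had -0.04, -0.042 and -0.147 untreated and -0.096, -0.228 and -0.134 treated. The median member difference was -0.075 in wild type, with 23 of 70 above 0, and -0.087 in the knockout, with 22 of 70 above 0, while the all-feature medians were -0.011 and 0.00. At 3 days the medians were -0.013 and 0.011, with 32 and 37 above 0. Without array 1 of the untreated knockout the 14-day knockout median was -0.155, with 11 of 70 above 0. Without array 3 of the treated knockout the 3-day knockout median was -0.07, with 22 of 70 above 0, so its sign rested on that array. At 14 days 12 members in wild type and 15 in the knockout had every treated array below every untreated array, against 10.5% and 10.2% of features, and 4 and 2 lay above, against 9.10% and 7.03%. The 47 large-subunit members had a median of -0.065 over both genotypes at 14 days and the 23 small-subunit members -0.111. Oxidative phosphorylation subunits, 72 of them, had a median of -0.091 in the same contrast, and 45 cytosolic ribosomal proteins 0.025. Averaged over times, 4 of the oxidative phosphorylation subunits (Sdhb, Ndufs7, Ndufs8 and Cox7a2) were lower and 0 higher, and 5 of the cytosolic ribosomal proteins (Rps21, Rps28, Rps27, Rpl10a and Rpl29) were higher and 0 lower. In that contrast 7.30% of all features were lower and 5.84% higher.

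Of the 6 skeletal muscle markers Myh4 was lower under dexamethasone, by -0.31 averaged over genotypes and times (adjusted p = 0.00562 by limma). In wild type at 3 days Myh4 differed by -0.61 (adjusted p = 0.0184). Markers of other cells moved with dexamethasone too. The 7 fibroblast and matrix markers fell from means of 8.09 to 8.77 on untreated arrays to 6.65 to 7.24 on treated ones. The 6 measured red blood cell markers lay at 9.40 to 9.98 in untreated and 7.94 to 8.30 in treated 3-day arrays, and at 9.49 to 10.05 in both at 14 days. The 2 measured macrophage markers lay lower on treated arrays, at 5.69 to 6.24, than on untreated ones, at 6.32 to 7.13. The 5 measured adipocyte markers lay at 5.71 to 5.92 on untreated and 6.08 to 6.14 on treated 3-day arrays, without overlap, and at 5.79 to 6.36 and 5.96 to 6.86 at 14 days. Averaged over genotypes and times, Cidec and Adipoq of that list were higher under dexamethasone, by 1.07 and 0.56. The 5 endothelial markers lay between 6 and 6.47 on all arrays, with Tek higher by 0.22 and Cdh5 lower by -0.26, and the 2 measured Schwann cell markers between 8.29 and 9.59, with 0 called. In whole muscle, fewer cells of a type and less RNA per cell cannot be told apart, and the part of these cells in the members' differences was not tested.

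**Figure D2:**
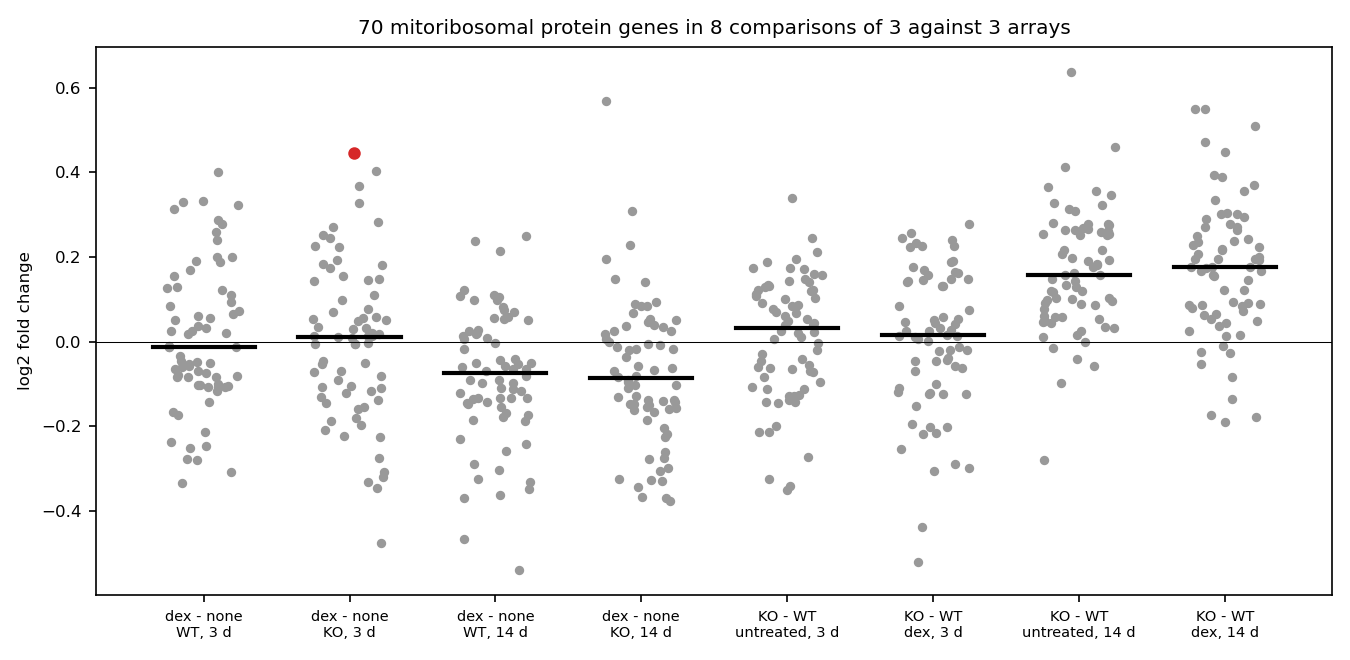
Log2 fold change of each of the 70 members (points) in 4 dexamethasone comparisons and 4 genotype comparisons, 3 arrays against 3; the bar is the median and the red point is the 1 member past an adjusted p of 0.05, Mrps30 in the knockout at 3 days. The median lies within 0.031 of 0 in all 4 comparisons of the 3-day arm, below 0 for dexamethasone at 14 days, and at 0.157 and 0.176 for the knockout against wild type in the 14-day arm.

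Knockout and wild type were compared within each arm and treatment, to ask whether loss of MuRF1 changes these transcripts. In each of the 4 comparisons 0 members passed, against 0.326% of features in the untreated 3-day arm, 0.351% in the untreated 14-day arm, 0.517% under 3 days and 0.603% under 14 days of dexamethasone. An unadjusted p under 0.05 by limma was reached by 1 and 4 members in the untreated and treated 3-day arm, or 1.43% and 5.71% beside 6.52% and 11% of all features. In the 14-day arm it was reached by 11 and 14, or 15.7% and 20% beside 10.3% and 11.4%. Averaged over arms and treatments, 3 members were higher in the knockout and 0 lower, against 3.69% of features, 1.99% higher and 1.70% lower. They were Mrpl17, Mrps33 and Mrps10. In that contrast 19 members had an unadjusted p under 0.05 by limma, or 27.1%, beside 19.3% of features.

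Mrpl17, a large-subunit protein near the exit of the nascent chain (probe ILMN_1225941, chromosome 7), showed the largest averaged genotype difference. In the 14-day arm untreated wild type had log2 signals of 9.88, 9.77 and 9.33 and the knockout 10.27, 10.30 and 10.33. Under dexamethasone wild type had 9.57, 9.46 and 9.55 and the knockout 10.20, 10.05 and 9.86. Every knockout array lay above every wild-type array of the same treatment at 14 days. In the 3-day arm values were 9.35, 9.89 and 9.66 against 9.94, 9.99 and 9.98 untreated, without overlap, and 9.72, 9.73 and 10.02 against 10.06, 9.88 and 10.22 treated, with overlap.

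The averaged log2 fold change of Mrpl17 was 0.43 (SE 0.0773, adjusted p = 0.00164 by limma), and no second probe read it. It was 0.58 over treatments in the 14-day arm (SE 0.109, adjusted p = 0.00512) and 0.28 in the 3-day arm (SE 0.109, adjusted p = 0.27). The difference between arms, 0.29, had an adjusted p of 0.606.

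Mrps33, a small-subunit protein known only in mitochondria, had an averaged difference of 0.22 (SE 0.0557, adjusted p = 0.027 by limma), and its other kept probe gave 0.07 and did not pass. At 14 days its wild-type arrays read 10.82, 10.81 and 10.83 untreated and 10.65, 10.67 and 10.71 treated, against 10.94, 11.13 and 11.18 and 10.94, 10.97 and 10.86 in the knockout. Mrps10, of the head of the small subunit, had 0.22 (SE 0.0618, adjusted p = 0.049), with -0.02 for its other probe. Its wild-type arrays at 14 days read 8.69, 8.72 and 8.83 untreated and 8.60, 8.71 and 8.77 treated, against 9.07, 9.25 and 9.15 and 9.02, 8.87 and 8.90. Both separated fully in the 14-day arm. In the 3-day arm Mrps33 separated too, in both treatments. Its wild-type arrays there read 10.85, 10.95 and 10.93 untreated and 10.6, 10.68 and 10.75 treated. The knockout arrays read 11.09, 11 and 11.01 untreated and 10.77, 10.94 and 11.04 treated. Mrps10 overlapped in that arm in both treatments. Without array 3 of the treated knockout at 3 days neither Mrps33 nor Mrps10 passed, and Mrpl17 alone was called. The same count of 1 came without array 1 of the 3-day untreated wild type, treated wild type or untreated knockout, or array 2 or 3 of the 14-day untreated knockout, and without array 1 of the last group it was 7. The shares of all features called in these fits are not given here. Mrps10 lost its call in 21 of 24 such fits. Under median scaling the averaged genotype differences shrank to 0.232 for Mrpl17, 0.053 for Mrps33 and 0.016 for Mrps10.

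More members had a positive knockout difference in the 14-day arm than in the 3-day arm, although no single member was called for the difference between arms. Members varied together on each array, so these tallies too are not 70 separate readings. In the untreated 14-day arm 64 of 70 had a positive difference, with a median of 0.157, and under dexamethasone 61 of 70, with a median of 0.176. The all-feature median was 0.02 in both. Without array 1 of the untreated knockout the untreated tally was again 64 of 70, with a median of 0.225. In the 3-day arm 40 of 70 were positive in each treatment, with medians of 0.031 and 0.014. Without array 3 of the treated knockout the treated 3-day tally was 28 of 70, with a median of -0.031. Arrays separated without overlap for 16 members higher and 0 lower in the untreated 14-day arm, against 8.62% and 5.25% of features, and for 23 higher and 2 lower under dexamethasone, against 10.2% and 8.30%. In the 3-day arm these counts were 4 and 1, against 6.62% and 6.53%, and 6 and 4, against 8.51% and 6.71%.

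Over both treatments, in contrasts added after the data were seen, 2 members were called higher in the 14-day arm, against 2.02% of features, and 0 in the 3-day arm, against 1.09%. Beside Mrpl17 this was Mrpl47, near the exit of the nascent chain, with 0.42 (SE 0.102, adjusted p = 0.0326 by limma). Of its 2 other probes 1 had the same sign and neither passed. Its call was lost in 8 of 12 fits that left out 1 array, and without array 1 of the untreated knockout 7 members were called. The share of all features called in that fit is not given here, so the 7 are not read as particular to the members. At 14 days Mrpl47 read 8.26, 8.26 and 8.45 in untreated and 8.27, 8.17 and 8.56 in treated wild type, against 8.54, 8.92 and 8.89 and 8.78, 8.62 and 8.70 in the knockout. All 23 small-subunit and 42 of 47 large-subunit members were positive in the 14-day arm, with a median of 0.17 in each. An unadjusted p under 0.05 by limma was reached by 24 members there, or 34.3%, beside 16.6% of features. In the 3-day arm 8 reached it, or 11.4%, beside 12.5%.

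The difference between arms itself had a median of 0.157 over members, with 60 of 70 positive, and called 0 members against 0.0553% of features. An unadjusted p under 0.05 was reached by 12 members, or 17.1%, beside 9.01% of features. Untreated muscle of the 14-day arm against that of the 3-day arm called 0 members, against 0.178% of features, with 3 at an unadjusted p under 0.05, or 4.29% beside 10.2% of features. The genotype difference of the dexamethasone effect called 0 members at 3 days, where 0% of features passed, and 0 at 14 days, where 0.0123% passed. Each had 1 member at an unadjusted p under 0.05 by limma, or 1.43%, beside 4.3% and 4.86% of features.

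The same direction was seen beside the members. In the 14-day arm over both treatments 60 of 72 oxidative phosphorylation subunits were higher in the knockout, with a median of 0.13, and 36 of 45 cytosolic ribosomal proteins, with a median of 0.098. None of these passed, against 2.02% of all features. Of the 7 fibroblast and matrix markers Lum was higher in the knockout, by 0.58 in the 14-day arm (adjusted p = 0.0236 by limma) and 0.40 on average (adjusted p = 0.0154), and the list's median in the 14-day arm was 0.126. The medians there were -0.355 for adipocyte, -0.316 for Schwann cell, 0.08 for endothelial, 0.066 for macrophage and 0.064 for red blood cell markers, with 0 of these genes called. In the 3-day arm they were 0.027 for fibroblast, 0.019 for adipocyte, -0.436 for Schwann cell, -0.126 for endothelial, 0.201 for macrophage and 0.12 for red blood cell markers. Their part in the members' differences was not tested. Under a scaling of arrays by their median signal in place of quantile normalization, the 3-day arm was no longer level: the median member was lower in the knockout by -0.52 where the median feature was at -0.294, and in the 14-day arm higher by 0.324 where the median feature was at 0.063. That scaling called 53 members in the 3-day arm and 60 for the difference between arms. The share of all features called under it is not given here, so these counts are not read as particular to the members. The averaged median member then was -0.099 beside -0.095 for all features.

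**Figure D3:**
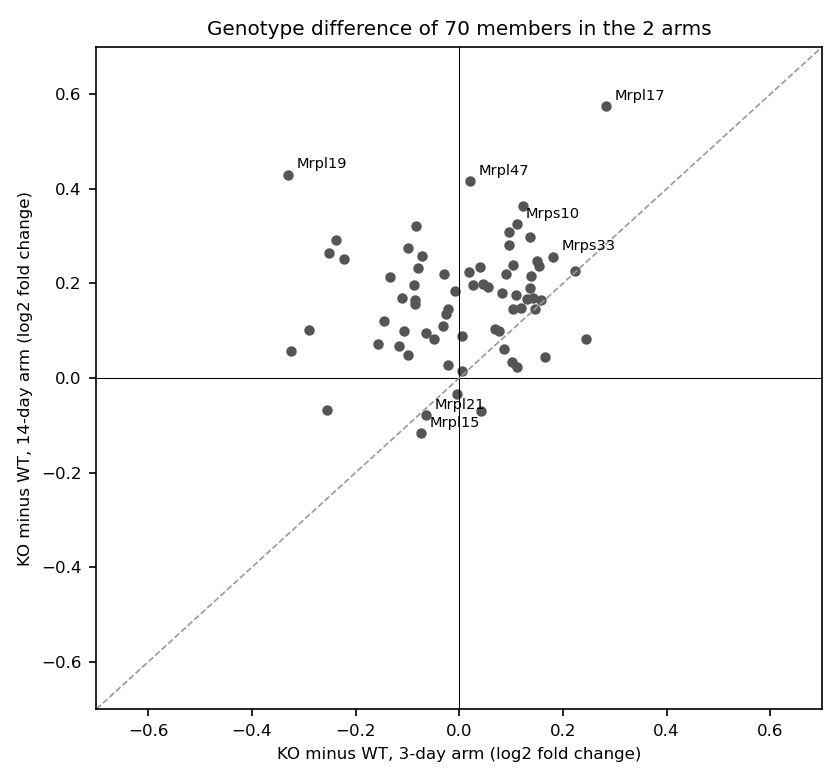
Knockout minus wild-type log2 fold change of each of the 70 members, averaged over treatments, in the 3-day arm (x axis) and the 14-day arm (y axis); the dashed line marks equal values. In the 14-day arm 65 members lie above 0, and in the 3-day arm 38 do.

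Other genes of mitochondrial translation were read from lists. Of 13 measured translation factors, Tufm, which brings aminoacyl-tRNA to the mitoribosome, was higher in the knockout, with an averaged difference of 0.30 (SE 0.0636, adjusted p = 0.00852 by limma), and 0 others passed there; Mrrf, a ribosome recycling factor, was higher under dexamethasone at 3 days over genotypes by 0.40 (adjusted p = 0.0326). The list had 11 of 13 positive and a median of 0.099. Of 15 mitochondrial aminoacyl-tRNA synthetase and amidotransferase genes, Lars2, which charges leucine tRNA, was lower under dexamethasone by -0.37 (adjusted p = 0.00514), and Qrsl1, of the amidotransferase, was higher in the knockout by 0.27 (adjusted p = 0.0309). Of 12 genes of mitochondrial DNA transcription and upkeep, Ppargc1b, a coactivator of mitochondrial gene programmes, was lower under dexamethasone by -0.54.

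Ppargc1b fell from a mean of 9.28 to 8.29 in wild type at 3 days (log2 fold change -0.99, SE 0.15, adjusted p = 0.000175 by limma). In the knockout at 3 days it fell from 8.99 to 8.46 (-0.53, SE 0.15, adjusted p = 0.0383). At 14 days its means were 8.90 untreated and 8.70 treated in wild type and 9.25 and 8.82 in the knockout, and it was not called there in either genotype or over both. Of 22 measured assembly factors, Mtg2, a GTPase of large-subunit assembly, rose in the knockout at 3 days by 0.60 (adjusted p = 0.0478), and at 3 days over genotypes by 0.39 (adjusted p = 0.0452). No assembly factor passed in the comparisons averaged over both times or both arms. The 3 measured mitoribosomal proteins with other names gave 0 calls in every comparison.

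Within groups the members went up and down together. After each group's mean was removed, the median correlation of 2 members over the 24 arrays was 0.266, beside 0.01 for pairs of all features, and 81.4% of 2415 pairs were positive. These deviations share arrays and their RNA and hybridization, so they describe the arrays. Without array 3 of the treated knockout at 3 days the median was 0.20 and 74.2% of pairs were positive. Mrpl50 and Mrps21 followed the mean of the other members most closely, at r = 0.890 and 0.885. In all, 37 members had r above 0.5 and 4 had r below 0: Mrpl15, Mrpl21, Mrps2 and Mrpl19.

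Mrpl15, a large-subunit protein with a bacterial counterpart, ran against the others at r = -0.80. Its log2 signal was 10.50, 10.56 and 9.16 in treated knockout at 3 days, where the third array was the one that had most other members high. In the untreated knockout of the 14-day arm it was 10.91, 9.86 and 10.21, highest on the array where most other members lay below their group mean. In the other 6 groups its arrays lay between 10.02 and 10.98. Its 2 other probes detected on all arrays had r of -0.754 and -0.773. Without array 3 the 3 values were -0.67, -0.647 and -0.625.

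Mrpl21 gave a like picture, with r = -0.768, or -0.683 without that array. Its log2 signal was 9.95, 9.78 and 8.98 in treated knockout at 3 days and 10.54, 9.49 and 9.89 in untreated knockout of the 14-day arm. Its other kept probe, detected on 4 arrays, had r = 0.575. The split between probes of 1 gene recurred. Probes other than the representative one lay at r = -0.746 for Mrps5, -0.741 for Mrpl3, -0.708 for Mrpl51, -0.647 for Mrpl9 and -0.555 for Mrpl38, while the representative probes of these genes lay at 0.444, 0.264, 0.519, 0.499 and 0.194. The transcripts that these probes read are not named in the files, and why they part was not tested.

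**Figure D4:**
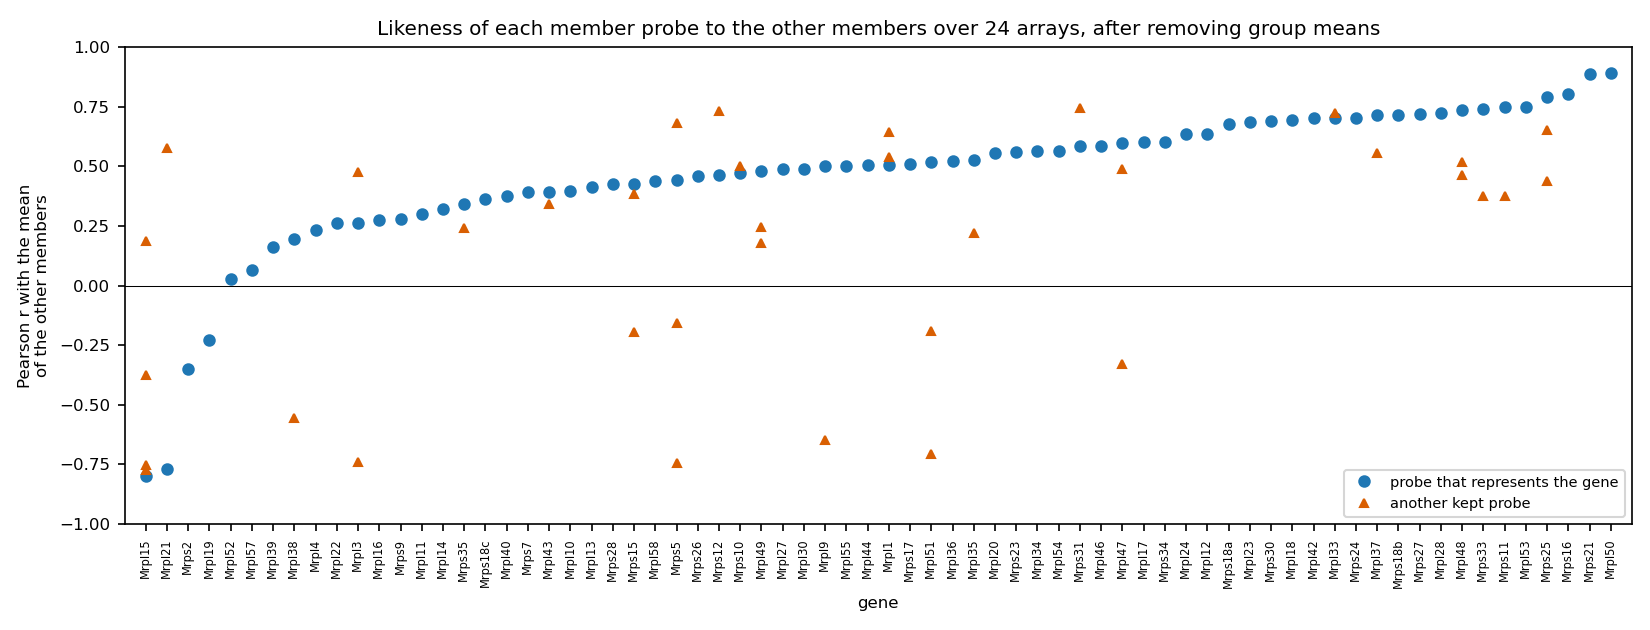
Pearson r of each kept member probe with the mean of the other members over 24 arrays after removal of group means, with genes ordered by their representative probe; circles are representative and triangles other kept probes. Mrpl15 and Mrpl21 stand apart at -0.80 and -0.768, and further probes of Mrps5, Mrpl3, Mrpl51, Mrpl9 and Mrpl38 lie near them.

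**Figure D5:**
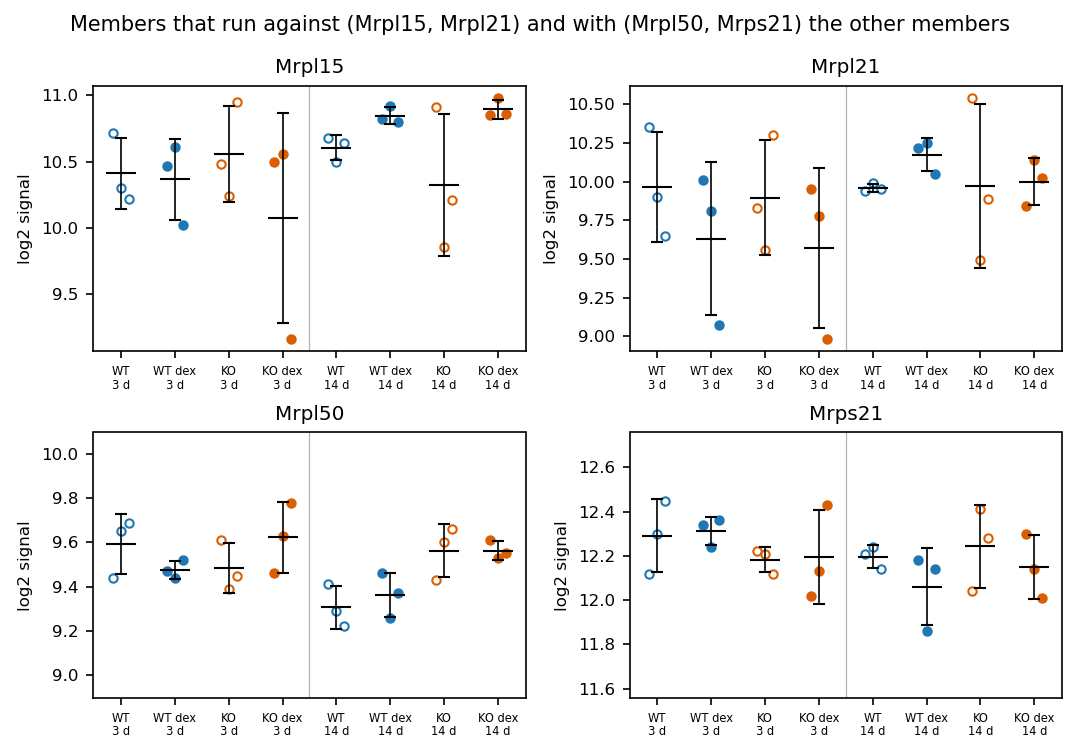
Log2 signal by array and group of Mrpl15 and Mrpl21, which ran against the other members, and of Mrpl50 and Mrps21, which ran with them; symbols and bars as in the plot of the called members. The third array of treated knockout at 3 days is lowest for Mrpl15 at 9.16 and Mrpl21 at 8.98, and highest of its group for Mrpl50 and Mrps21.

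The members' promoters were read from RefSeq sequences (GRCm38.p6, 250 bases before to 50 after the start), which held 61 of 70 members. The 6 short motifs were searched on both strands. The ETS motif CCGGAAG, bound by GABPA, was in 39.3% of member promoters and 9.12% of all 27025 promoters. The NRF1 core TGCGCA was in 29.5% and 8.06%, and the YY1 motif AAGATGG in 19.7% and 6.48%. The SP and KLF motif GGGCGG was in 45.9% and 35.9%, and the ERR motif AAGGTCA in 6.56% and 4.66%. The glucocorticoid receptor core AGAACA was in 9.84% and 19%. These are matches of letters, not bound sites, and their part in the members' levels or shared variation was not tested. The set of all promoters was not limited to genes detected here.

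The promoters of 4 members are shown because they carry the differences above: Mrps30 rose, Mrpl48 and Mrps12 were lower under dexamethasone, and Mrpl17 was higher in the knockout. Capitals mark matches of the 6 motifs in either orientation, and each sequence runs 5′ to 3′ along the gene.
Mrps30: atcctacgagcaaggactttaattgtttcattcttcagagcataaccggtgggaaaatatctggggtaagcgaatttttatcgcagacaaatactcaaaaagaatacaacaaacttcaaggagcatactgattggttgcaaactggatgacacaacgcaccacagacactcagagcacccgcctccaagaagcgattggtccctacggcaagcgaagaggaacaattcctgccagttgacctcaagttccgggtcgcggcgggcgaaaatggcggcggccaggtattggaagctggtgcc
Mrpl48: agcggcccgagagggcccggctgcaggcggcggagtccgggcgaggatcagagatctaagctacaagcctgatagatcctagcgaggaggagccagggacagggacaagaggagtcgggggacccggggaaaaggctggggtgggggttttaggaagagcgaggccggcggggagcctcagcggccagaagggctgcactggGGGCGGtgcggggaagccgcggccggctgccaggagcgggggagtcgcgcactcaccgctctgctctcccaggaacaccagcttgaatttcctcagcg
Mrps12: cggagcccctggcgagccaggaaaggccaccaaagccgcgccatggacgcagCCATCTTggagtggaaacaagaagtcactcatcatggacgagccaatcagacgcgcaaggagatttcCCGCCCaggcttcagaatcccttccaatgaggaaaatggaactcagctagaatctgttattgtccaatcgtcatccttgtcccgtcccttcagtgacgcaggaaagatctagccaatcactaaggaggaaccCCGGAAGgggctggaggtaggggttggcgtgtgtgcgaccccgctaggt
Mrpl17: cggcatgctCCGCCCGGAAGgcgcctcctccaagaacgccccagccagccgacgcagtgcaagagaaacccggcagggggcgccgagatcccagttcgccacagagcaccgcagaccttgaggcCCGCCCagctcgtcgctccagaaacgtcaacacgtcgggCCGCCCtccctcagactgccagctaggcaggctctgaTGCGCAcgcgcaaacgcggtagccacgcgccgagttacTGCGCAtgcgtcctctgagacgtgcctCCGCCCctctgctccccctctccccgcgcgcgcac
The Mrps30 promoter (chr13:118387203-118387502, minus strand) held 0 matches. That of Mrpl48 (chr7:100608252-100608551, minus strand) held 1, of the SP and KLF motif. That of Mrps12 (chr7:28741772-28742071, minus strand) held 3, of the YY1, SP and KLF, and ETS motifs. That of Mrpl17 (chr7:105811038-105811337, minus strand) held 7: 2 NRF1 cores, 1 ETS and 4 SP and KLF matches, 1 of which overlapped the ETS match. No match of the glucocorticoid receptor core was in these 4 windows.

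Trim63 lies on chromosome 4, as do 4 members, Mrpl20, Mrpl37, Mrpl50 and Mrps15. Their averaged knockout minus wild-type differences were 0.20, 0.09, 0.12 and -0.13, and none passed, with adjusted p-values of 0.137 to 0.495 by limma. The largest averaged genotype difference, that of Mrpl17, was on another chromosome. The median member had a pooled within-group SD of 0.149 on the log2 scale and the median feature 0.219, so the members were read with less scatter than most features.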

How the data were processed

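Biotin-labelled cRNA from 24 samples was read on Illumina mouse arrays; the submitters' processing notes name BeadStudio 3.2.3. The deposited non-normalized table holds an average signal intensity and a detection p-value for each of 46632 probes, per the file headers. The authors' value table, also intensity, looked background-subtracted and quantile-normalized when set against it, and served as an alternative with a floor of 16. Arrays are numbered as in the first table's header. In 5 groups these numbers are not the labels' replicate numbers, so its columns were mapped to groups only.

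Signals were background-corrected and quantile-normalized with neqc (offset 16) of limma 3.58.1 in R 4.3.3. Probes detected on 3 or more arrays were kept, 20769 in all, and each gene was read by its brightest kept probe. Group means were fitted to 16262 features (16 residual degrees of freedom), with Benjamini-Hochberg adjustment in each comparison, and the fit was tested on simulated data. All log2 values are from this fit. Named genes were members and list genes past the threshold, the 4 largest averaged dexamethasone differences per direction and members near the detection limit; members named for how they varied together, on chromosome 4 or in opposite directions were chosen after their values were seen. Members and lists were chosen with earlier results of these data known, and 5 of 19 contrasts were added later. Alternatives were background, scaling, filter, probe choice, array weights, the value table, the replicate block and single arrays left out.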

Additional observations from a re-analysis of the deposited data

Results flagged for a closer look

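Pairs of comparisons that differ in 1 factor (genotype, treatment or arm) were searched for members whose arrays separated completely in opposite directions, and 4 members did so. How many of all features did so is not given here, so 4 of 70 is not read as unusual. In single comparisons 6.62% to 11.4% of features separated upward and 5.25% to 11.2% downward. The interactions that limma fitted did not pass for any of them, and single arrays of groups of 3 were not tested as outliers. Mrpl1, a large-subunit protein, was higher under dexamethasone at 14 days in wild type by 0.105 and lower in the knockout by -0.162 (genotype by dexamethasone -0.27, adjusted p = 1 by limma). Mrpl44, a large-subunit protein known only in mitochondria, was higher in the untreated knockout of the 14-day arm by 0.191 and lower in the treated knockout by -0.136 (genotype by dexamethasone -0.33, adjusted p = 1 by limma). Mrps35, a small-subunit protein, gave 0.217 and -0.19 in the same pair (genotype by dexamethasone -0.41, adjusted p = 0.997 by limma).

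Mrpl19, a large-subunit protein with a bacterial counterpart, was lower in the treated knockout at 3 days by -0.522 and higher at 14 days by 0.55. Its 3-day values were 7.03, 7.43 and 7.38 in treated wild type and 6.93, 6.68 and 6.66 in treated knockout, and its 14-day values 6.04, 6.67 and 6.82 and 6.88, 6.89 and 7.40. Over both treatments the difference between arms was 0.76 (SE 0.2, adjusted p = 0.216 by limma), the largest of the members.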

How the results depend on the processing

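The counts of called members depend on the processing, and none of the 18 member calls changed direction in any alternative run for it. Counts from the alternatives, here and above, are of members alone, without the share of all features called in the same run. They show how the calls moved with the setting, not whether members passed more often than other features. Other named members were not rerun. Without background correction 2 members were called for dexamethasone in wild type at 3 days, 2 in wild type at 14 days, 5 in the knockout at 14 days and 11 on average, 8 and 7 at 3 and 14 days over genotypes, 1 for the untreated 14-day genotype comparison, 9 for the averaged one and 5 over treatments at 14 days. The authors' value table gave 2, 1, 5, 9, 7 and 7 for the same dexamethasone contrasts, and 6 and 5 for the averaged and 14-day genotype contrasts. Median scaling gave 0 for dexamethasone in the knockout at 3 days, 0 on average and 0 at either time, 15 for the genotype comparison under 3 days of dexamethasone, 53 for the 3-day arm over treatments, 0 averaged, 0 in the 14-day arm and 60 for the difference between arms, and it reversed the averaged genotype median to -0.099 and the 3-day one to -0.52. No filter gave 1 (dexamethasone, wild type, 3 days), 2 (knockout, 14 days), 8 (averaged) and 5 (genotype, 14-day arm). The mean of probes gave 1, 1, 5 and 2 for dexamethasone in wild type at 3 days, the knockout at 14 days, 3 days and 14 days over genotypes, and 1 and 1 for the averaged and 14-day genotype contrasts. Fitting only the groups compared gave 0 for dexamethasone in the knockout at 3 days and 1 each for dexamethasone at 3 days, at 14 days and genotype in the 14-day arm. Array weights gave 2, 5, 9 and 18 for dexamethasone in wild type at 3 days, the knockout at 3 and 14 days and on average, 11 and 9 at 3 and 14 days, 15, 5 and 13 for genotype in untreated 14-day, treated 3-day and averaged muscle, 2 and 16 per arm, 7 for the difference between arms and 2 for the change with time. The stricter filter moved no count, and the median of the 3-day genotype difference also turned to -0.011 under array weights and ran from -0.002 to 0.054 with 1 array left out, the lowest without array 1 of untreated wild type.

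The labels' replicate numbers exist only on the value table. Of 24 same-numbered pairs 9 correlated above 0.1 in their deviations, between -0.379 and 0.44, and no comparison had all 3 pairs above 0.1, so the numbers were not taken to pair samples. With the replicate block on that table the counts were 2, 4, 3, 6 and 12 for dexamethasone in wild type and knockout at 3 days, in both at 14 days and on average, 10 and 9 at 3 and 14 days, 2, 1, 1 and 10 for genotype in untreated 14-day, treated 3-day, treated 14-day and averaged muscle, 1 and 9 per arm, and 1 for the change with time. Leaving out 1 array gave 0 to 1 for dexamethasone in the knockout at 3 days, 5 to 8 averaged, 1 to 3 at 3 days and 1 to 4 at 14 days, and 1 to 7 for genotype averaged and 1 to 7 in the 14-day arm; without array 1 of the untreated knockout in the 14-day arm both of these were 7. The slide as a block was not run, since no header names a slide. Where a cause is not plain from the setting, it was not tested. Of 8 alternatives to its averaged call, Mrps10 lost it in 2 (median scaling and the mean of probes), with adjusted p-values by limma from 0.00792 to 0.946 over all fits. Arrays number 3 per group and limit the precision of every value.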
